A study of Mus musculus with 80 samples.

Results

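Cell-Input and Tissue-Input are the unsorted RNA of a dissociated brain hemisphere and of the undissociated opposite hemisphere of the same mouse. The comparison holds 8 of the 80 libraries of the series, 4 Cell-Input and 4 Tissue-Input, chosen by their labels from the cell sorting experiment and paired by the mouse numbers 946, 947, 948 and 949. All 8 came from Cx3cr1(Jung)-cre/Ert2+;NuTRAP+ mice, in which tamoxifen-induced Cre under the *Cx3cr1* promoter labels the ribosomes and nuclei of microglia and also of macrophages at the borders of the brain. Every mouse received tamoxifen at 100 mg/kg per day for 5 days at about 3 months of age, and brains were taken at 5 to 8 months. For Tissue-Input, the hemisphere was homogenized directly in cold lysis buffer. For Cell-Input, the opposite hemisphere was digested with papain-based enzymes for 30 min at 37°C with mechanical dispersal, cleared of debris and filtered into a suspension that was lysed before any sorting. In both groups Input is the RNA of the cleared lysate, taken before the labelled ribosomes were pulled down, so it reports all cells and not microglia alone. The question was what making the suspension does to the RNA profile before a sorter is used.

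Brain dissociation has to break the tissue apart. Neurons carry much of their cytoplasm and mRNA in axons and dendrites that are interwoven with other cells in the neuropil, whereas oligodendrocytes wrap axons, astrocytes line vessels, and microglia are small cells spread through the tissue. Microglia are the resident macrophages of the brain and respond to injury signals within minutes, first with immediate-early genes (transcription factors and feedback regulators such as *Fos* and *Zfp36*, transcribed without new protein synthesis) and then with NF-kB-driven cytokines and chemokines.

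The libraries held 15605669 to 17476508 counts in Tissue-Input and 12940459 to 16332332 counts in Cell-Input. The 10 genes with the most counts took 2.60 to 2.72% of a Tissue-Input library and 4.30 to 4.82% of a Cell-Input library. On the first principal component, which held 93.7% of the variance of log2(CPM + 1), the Tissue-Input libraries lay between -88.8 and -83.8 and the Cell-Input libraries between 77.1 and 97.5. CPM are counts scaled to a common library total after trimmed mean of M values (TMM) scaling, so every value below is relative to the rest of its library. The Cell-Input libraries spread more than the Tissue-Input libraries on the second component, from -12.5 to 30.1 against -1.29 to 0.541.

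Of 15919 genes listed, 15435 passed the filter of more than 5 counts in every library of at least 1 group, and 7205 of these (46.7%) differed at an adjusted p under 0.1 and a fold change above 2 (edgeR quasi-likelihood test with the mouse as a block, Benjamini-Hochberg adjustment). In Cell-Input 4027 genes (26.1%) were higher and 3178 (20.6%) were lower, around a median log2 fold change of 0.02 over all genes tested. The change exceeded 8-fold for 980 of the higher and 742 of the lower genes. The libraries of the 2 groups did not overlap in CPM for 11835 of the 15435 genes (76.7%), and 7142 of the 7205 called genes moved the same way in all 4 mice. Against those backgrounds, each list below is described by its direction and by its median change.

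**Figure D1:**
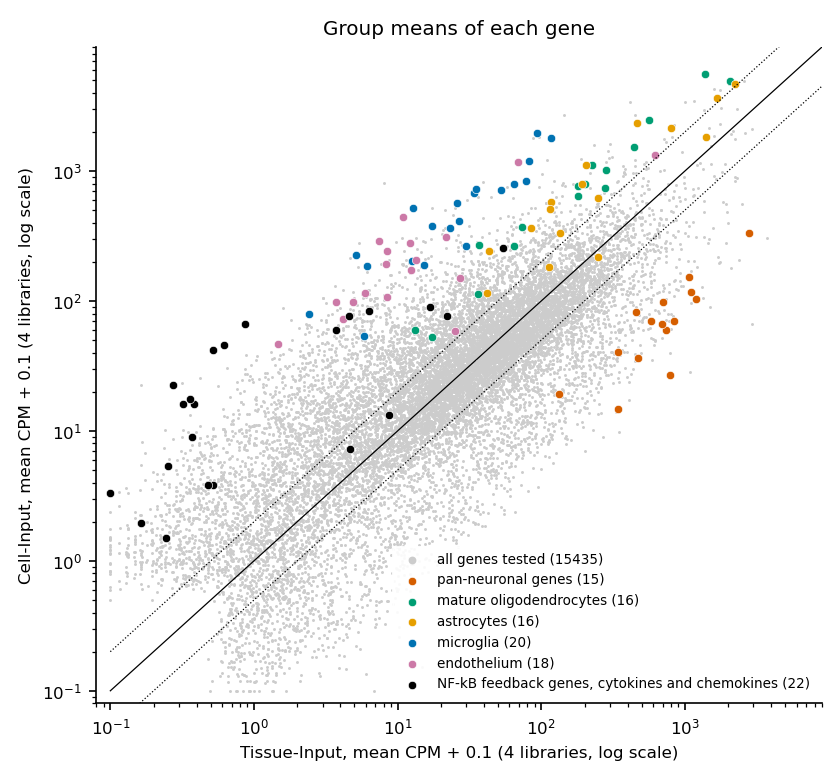
Mean CPM + 0.1 of each tested gene in Tissue-Input (x axis) and Cell-Input (y axis), both on log scales; grey points are all 15435 genes, coloured points are members of 6 gene lists, the solid line marks equal means and the dotted lines 2-fold differences. The 15 pan-neuronal genes lie below the lower dotted line, and the 20 microglia genes and 16 mature oligodendrocyte genes above the upper one.

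The genes that took the most counts differed between the groups. In Tissue-Input they included *Hspa8*, a constitutive chaperone, *Meg3*, a long noncoding RNA, *Snap25*, a synaptic vesicle fusion protein, and *Ckb*, brain creatine kinase. In Cell-Input they included *Mbp*, a myelin gene, *Apoe*, a lipid carrier of astrocytes and microglia, and *Glul*, the glutamine synthetase of astrocytes. *Glul* stood at a log2 fold change of 1.07 ± 0.09 (SE, n = 4 mice) and *Hspa8* at -0.49 ± 0.09. *Apoe*, at 0.92 ± 0.11, and *Ckb*, at -0.42 ± 0.10, did not reach a 2-fold change.

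Among genes with a mean of at least 50 CPM in the higher group, the 12 largest rises were in *Zfp36*, *Ccl3*, *Tagap*, *Alas2*, *Atf3*, *Gpr34*, *P2ry12*, *Cd93*, *Flt1*, *Abcb1a*, *Socs3* and *Tlr7*, with log2 fold changes between 5.19 and 6.89. They join microglial receptors (*Gpr34*, *P2ry12*, *Tlr7*), endothelial genes (*Flt1*, *Abcb1a*, *Cd93*), the heme synthesis gene of red cells (*Alas2*) and response genes (*Zfp36*, *Ccl3*, *Atf3*, and *Socs3*, a feedback inhibitor of cytokine signalling). The 12 largest falls included *Meg3*, *Snhg11*, *Trank1*, *Nefm*, *Sst*, *Nell1*, *Slc30a3*, *Slc1a6*, *Cacng3*, *Vgf* and *A330023F24Rik*, between -5.46 and -4.59. Among these are a synaptic zinc transporter (*Slc30a3*), a neurofilament (*Nefm*), neuropeptides (*Sst*, *Vgf*) and the Purkinje cell glutamate transporter (*Slc1a6*).

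**Figure D2:**
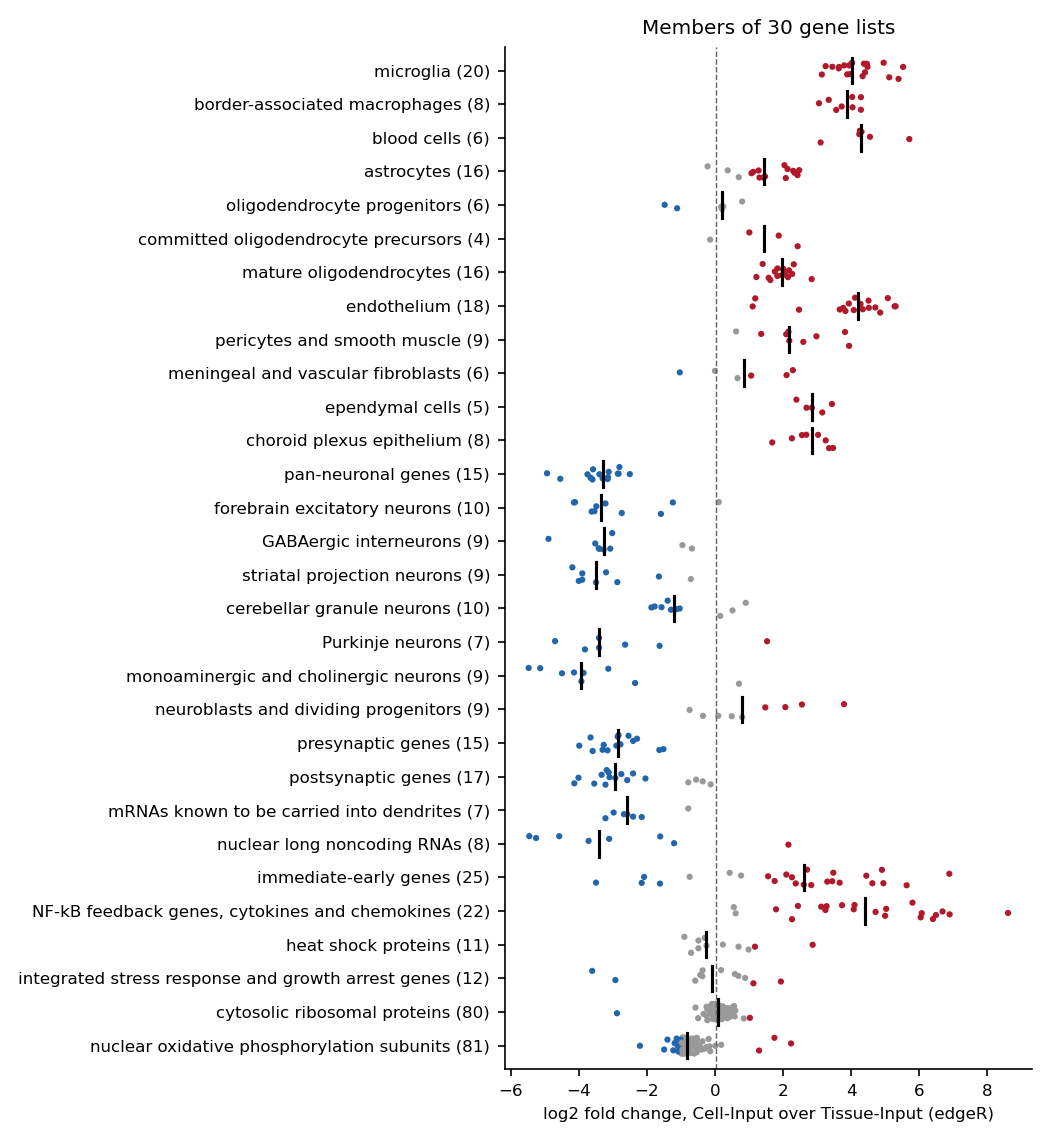
Log2 fold change of Cell-Input over Tissue-Input for each tested member of 30 gene lists, with the number of tested members in parentheses; red points were called higher, blue points lower and grey points were not called, black bars are list medians and the dashed line is the median of all genes (0.02). Neuronal and synaptic lists lie on the left, with medians from -3.93 to -1.21, and the microglia, blood and endothelium lists on the right, with medians from 4.02 to 4.28. Some lists, such as the blood list and the monoaminergic and cholinergic list, hold members with few counts in 1 group.

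Neuronal transcripts were lower in Cell-Input. All 15 tested pan-neuronal genes fell, with a median log2 fold change of -3.31, 9.91-fold lower. The adjusted p of each was at most 3.50e-06. Their summed level was 12248 ± 336 CPM in Tissue-Input and 1294 ± 373 CPM in Cell-Input (mean ± SD, n = 4 mice). *Snap25* read 2802, 2758, 2778 and 2790 CPM in the Tissue-Input libraries of mice 946, 947, 948 and 949 and 516, 389, 172 and 269 CPM in their Cell-Input libraries. The tissue values lay close together, the suspension values were spread, lowest in mouse 948, and the groups did not overlap (log2 fold change -3.16 ± 0.24, adjusted p = 3.50e-06). In bulk RNA, fewer cells of a type and less RNA per cell cannot be told apart.

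Members of the pan-neuronal list did not fall equally. The neurofilament genes, which encode the cytoskeleton of long axons, fell most: *Nefm* by 4.94 ± 0.21, *Nefh* by 4.55 ± 0.17 and *Nefl* by 3.75 ± 0.17 on the log2 scale. *Stmn2*, a tubulin regulator of growth cones, fell least, by 2.51 ± 0.15. *Rbfox3*, the splicing factor NeuN, whose protein marks neuronal nuclei, fell by 3.13 ± 0.21, and *Tubb3*, neuronal tubulin, by 2.86 ± 0.11. In mouse 948 the list fell most, with a median log2 ratio of -3.90 against -2.89 in mouse 946, -3.28 in mouse 947 and -3.37 in mouse 949.

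Genes of the synapse fell with the neurons. All 15 tested presynaptic genes were lower (median log2 fold change -2.86), and *Stx1a*, a plasma membrane protein of vesicle fusion, fell most, at -3.99. *Syp*, a vesicle membrane protein, read 2168, 2108, 2059 and 2027 CPM in tissue and 263, 185, 120 and 152 CPM in suspension (log2 fold change -3.60 ± 0.17). Of 17 postsynaptic genes, 13 were lower and 4 were not called, with a median of -2.93. The 4 were *Gria1*, *Gphn*, *Nlgn1* and *Shank3*, at -0.13 ± 0.08, -0.36 ± 0.09, -0.56 ± 0.11 and -0.79 ± 0.17. They encode a glutamate receptor subunit, the scaffold of inhibitory synapses, a synaptic adhesion protein and a scaffold of excitatory synapses, whereas the NMDA receptor subunit *Grin1* fell by 4.14 ± 0.19. Without mouse 947, *Shank3* was called lower, at -1.01. Of 7 tested mRNAs known to be carried into dendrites, 6 were lower (median -2.58), including *Camk2a*, *Shank1*, *Ddn* and *Arc*. The lists overlap, with *Snap25* in the pan-neuronal and presynaptic lists and *Camk2a* and *Shank3* in the postsynaptic and dendritic lists, and no difference between lists was tested.

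**Figure D3:**
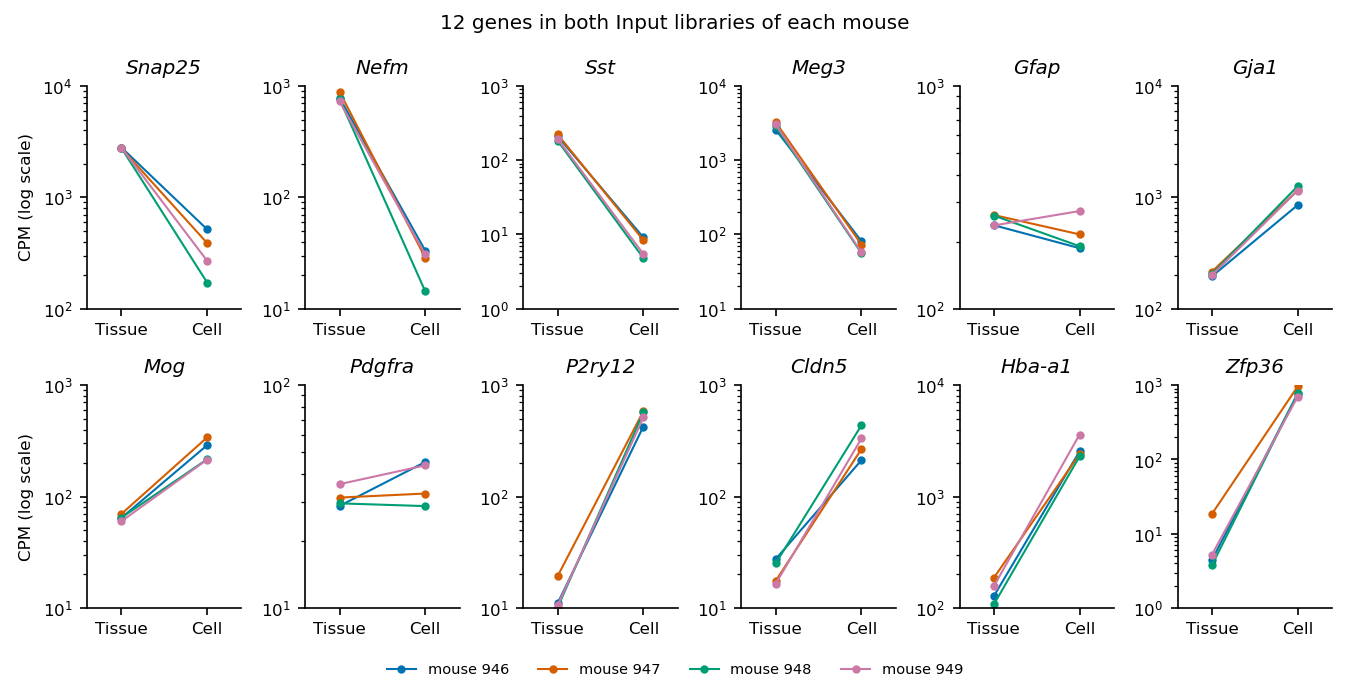
CPM of 12 genes (log scale, each panel with its own axis) in the Tissue-Input and Cell-Input libraries of each mouse, joined by a line per mouse. Lines for *Snap25*, *Nefm*, *Sst* and *Meg3* fall in all 4 mice, those for *Gja1*, *Mog*, *P2ry12*, *Cldn5*, *Hba-a1* and *Zfp36* rise in all 4, and those for *Gfap* and *Pdgfra* cross.

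Genes of every neuron class examined fell. Of 10 forebrain excitatory genes 9 were lower (median log2 fold change -3.36), of 9 GABAergic interneuron genes 7 (-3.28), of 9 striatal genes 8 (-3.50), of 7 Purkinje genes 6 with 1 higher (-3.41) and of 9 monoaminergic and cholinergic genes 8 (-3.93). With a minimum of 10 counts in every library, which leaves fewer members to test, the monoaminergic and cholinergic median was -2.34. The count and median of that list are therefore a description only. *Slc17a7*, the vesicular glutamate transporter of cortical excitatory neurons, read 1339, 1235, 1268 and 1439 CPM in tissue and 178, 161, 57.1 and 112 CPM in suspension. *Gad1*, which makes GABA, read 498, 492, 497 and 518 CPM in tissue and 116, 27.5, 74.1 and 57.2 CPM in suspension. Both were lowest in suspension in a different mouse, *Slc17a7* in mouse 948 and *Gad1* in mouse 947, and both were lower in all 4 mice (log2 fold changes -3.49 ± 0.26 and -3.02 ± 0.29). *Sst*, the somatostatin of an interneuron class, fell by 4.90 ± 0.14 on the log2 scale, and *Drd2*, the D2 dopamine receptor, by 4.20 ± 0.28.

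Of 10 genes of cerebellar granule neurons, 7 were lower and 3 were not called, with a median log2 fold change of -1.21. Its spread between mice was the largest of the 30 lists (SD of the mouse medians 1.14): the median log2 ratio was -0.58 in mouse 946, -0.23 in mouse 947, -2.80 in mouse 948 and -1.25 in mouse 949. *Gabra6*, the GABA receptor subunit typical of granule cells, read 56.5, 40.02, 75.4 and 51.8 CPM in tissue and 47.1, 38.2, 11.1 and 21.5 CPM in suspension. The pairs lay close together in mouse 947 and far apart in mouse 948 (log2 fold change -1.04 ± 0.38, adjusted p = 0.0335), where the tissue value was the highest of its group. Without mouse 948 only 3 of the 10 genes were lower and *Gabra6* stood at -0.52, without mouse 949 it stood at -0.96, without the mouse as a block at -0.93, scaled by library totals at -0.97 and with all 24 Input libraries in 1 fit at -0.80, none of which passed the 2-fold threshold. The 3 members not called were the transcription factors *Etv1*, *Zic1* and *Zic2*, at 0.90, 0.15 and 0.51, and *Etv1* was called higher without mouse 949, at 1.02.

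A few genes of the neuronal lists did not follow. *Rorb*, a transcription factor of cortical layers, stood at 0.11 ± 0.14, *Ppp1r1b*, the DARPP-32 of striatal neurons, at -0.71 ± 0.12 and *Ddc*, which completes dopamine and serotonin synthesis, at 0.70 ± 0.14. *Npy* and *Reln*, a neuropeptide and a secreted glycoprotein, stood at -0.68 ± 0.35 and -0.96 ± 0.21. *Npy* read 60.1, 12.3, 72.4 and 31.7 CPM in suspension, with mouse 947 lowest, and was called lower without mouse 948, at -1.06, and *Reln* without mouse 946 or 947, at -1.16 in both. Of 9 genes of neuroblasts and dividing progenitors 44.4% were called, near the 46.7% of all genes tested. With a minimum of 10 counts in every library, which leaves fewer members to test, their median log2 fold change was 0.50 against 0.80. In the reported fit 4 of the 9 were higher, a count that is a description only. They were the proliferation genes *Top2a* (3.79 ± 0.30) and *Mki67* (2.55 ± 0.31), *Cd24a* (2.07 ± 0.13) and *Igfbpl1* (1.48 ± 0.24), while *Dcx*, *Sox11* and *Dlx1* of migrating neuroblasts stood at 0.09, -0.36 and -0.75 and were not called.

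Nuclear long noncoding RNAs were among the largest falls: 7 of 8 were lower and *Neat1* was higher (median log2 fold change -3.42). *Meg3* is at chromosome 12, 109540996 to 109571729 (mm10), in an imprinted cluster that also holds *Rian* and *Mirg*. It read 2577, 3233, 2849 and 3030 CPM in tissue and 81.1, 73.1, 55.9 and 57.3 CPM in suspension, a 44.1-fold fall. *Miat* and *Snhg11*, also expressed in neurons, fell by 4.58 ± 0.09 and 5.26 ± 0.17 on the log2 scale, and *Rian* and *Mirg* by 3.11 ± 0.15 and 3.72 ± 0.31. *Malat1*, a nuclear RNA of most cell types, fell by 1.20 ± 0.11, and *Neat1*, the scaffold RNA of paraspeckles, rose from 86.2, 75.8, 70.1 and 72.3 CPM to 376, 355, 341 and 288 CPM (log2 fold change 2.16 ± 0.08). The pan-neuronal gene that fell most, *Nefm*, stood at -4.94 beside -5.46 for *Meg3*. Lysates in both groups were cleared by centrifugation, and how much nuclear RNA stayed in the supernatant was not tested. Over all 673 noncoding RNA genes of the class miscRNA, 20.5% were higher and 33.3% lower, against 26.4% and 19.97% of 14648 protein-coding genes.

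Mature oligodendrocyte genes rose, by a median of 3.94-fold. All 16 were higher, with a median log2 fold change of 1.98, a range from 1.22 to 2.84 and adjusted p of at most 0.00024. *Mog*, a protein of the outer myelin surface, read 64.3, 69.8, 64.7 and 60.1 CPM in tissue and 289, 340, 216 and 215 CPM in suspension. It was higher in mice 946 and 947 than in mice 948 and 949 in suspension, and the groups did not overlap (log2 fold change 2.01 ± 0.11, adjusted p = 4.39e-07). *Mag*, an adhesion protein of the inner myelin layer, stood at 1.83 ± 0.11. *Mbp*, whose mRNA is carried out into the myelin sheath, rose least of the 16 (1.22 ± 0.18) and *Ugt8a*, which makes myelin galactolipids, rose most (2.84 ± 0.14). *Mbp* was below a 2-fold change without mouse 949, at 0.99.

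Earlier stages of that lineage were examined too. Of 6 oligodendrocyte progenitor genes none was higher and 2 were lower, *Lhfpl3* (-1.12 ± 0.14) and *C1ql1* (-1.48 ± 0.24), and *Lhfpl3* was not called without mouse 947, at -0.99. *Pdgfra*, the growth factor receptor that defines progenitors, read 28.7, 31.3, 29.5 and 35.95 CPM in tissue and 45.2, 32.6, 28.7 and 43.7 CPM in suspension, overlapping groups (0.24 ± 0.12, adjusted p = 0.10). *Cspg4*, the NG2 proteoglycan, stood at 0.80 ± 0.10. Of 4 genes of committed precursors 3 were higher, among them *Enpp6* (2.43 ± 0.16) and *Bmp4* (1.87 ± 0.22), and *Neu4* was not called at -0.14. *Gpr17* was at the threshold (1.01 ± 0.12) and was not called without mouse 946, 947 or 949, at 0.94 to 0.96, nor with DESeq2 size factors, the DESeq2 Wald test or limma, at 0.99 to 1.00.

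Astrocyte genes rose, but not all of them. Of 16, 13 were higher and 3 were not called, with a median log2 fold change of 1.45. *Gja1*, connexin 43, read 195, 215, 205 and 200 CPM in tissue and 853, 1158, 1262 and 1152 CPM in suspension, a 5.37-fold rise, and the glutamate transporters *Slc1a3* and *Slc1a2* rose by 2.34 ± 0.09 and 1.12 ± 0.11 on the log2 scale. The 3 were *Gfap*, *Aldoc* and *Aldh1l1*. *Gfap*, the intermediate filament of astrocytes, read 237, 263, 262 and 237 CPM in tissue and 187, 216, 191 and 274 CPM in suspension (-0.22 ± 0.11, adjusted p = 0.11), *Aldoc*, a glycolytic enzyme, stood at 0.37 ± 0.13 and *Aldh1l1*, a folate enzyme, at 0.70 ± 0.09.

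Microglia genes rose by a median of 16.2-fold. All 20 were higher, with log2 fold changes from 3.14 (*Sall1*, a transcription factor of microglial identity) to 5.53 (*Gpr34*, a lysophosphatidylserine receptor), a median of 4.02 and adjusted p of at most 8.00e-08. Their sum went from 738 ± 157 CPM to 12153 ± 1249 CPM (n = 4), or from 0.0738% to 1.22% of the library. *P2ry12*, the purine receptor of resting microglia, read 11.02, 19.3, 10.1 and 10.5 CPM in tissue and 426, 584, 570 and 514 CPM in suspension, 42.1-fold higher (log2 fold change 5.39 ± 0.16, adjusted p = 4.92e-08). *Cx3cr1*, the fractalkine receptor whose promoter drives the Cre, rose by 4.48 ± 0.13, *Tmem119* by 4.34 ± 0.14 and *Aif1*, which encodes IBA1, by 3.25 ± 0.11. The Tissue-Input library of mouse 947 stood above the others, with a sum of 972 CPM against 642 to 675 CPM in the other mice.

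Border-associated macrophages and blood cells, which also reach a suspension of an unperfused brain, rose too. All 8 macrophage genes were higher (median log2 fold change 3.88). With a minimum of 10 counts in every library, which leaves fewer macrophage genes to test, their median was 4.05. The macrophage count and median are a description only. *Mrc1*, the mannose receptor, read 3.43, 5.26, 4.38 and 5.62 CPM in tissue and 155, 90.6, 72.3 and 69.9 CPM in suspension, highest in mouse 946, as were *Cd163*, *Lyve1* and *Pf4*. All 6 tested blood genes were higher (median 4.28). Some of them, such as *S100a8* and *S100a9*, had few tissue counts, so that count and median are a description only. With a minimum of 10 counts in every library, which leaves fewer members to test, the median was 4.57. *Hba-a1*, an alpha globin, read 127, 186, 108 and 157 CPM in tissue and 2551, 2408, 2298 and 3609 CPM in suspension, highest in mouse 949. *Hba-a1* and *Hba-a2* are near-identical copies, so the split of counts between them is uncertain. *S100a8* and *S100a9* of neutrophils rose by 4.26 ± 0.36 and 4.31 ± 0.42 from under 1 CPM in every tissue library.

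Endothelial genes rose. All 18 were higher, with a median log2 fold change of 4.20. *Cldn5*, the claudin of the blood-brain barrier, read 27.4, 17.5, 25.2 and 16.5 CPM in tissue and 213, 267, 437 and 333 CPM in suspension, 14.3-fold higher. *Flt1*, a receptor for vascular endothelial growth factor, rose most (5.31 ± 0.18), and *Bsg*, a glycoprotein of the barrier also made by other cells, rose least (1.11 ± 0.12). Of 9 tested genes of pericytes and smooth muscle 8 were higher (median 2.18), with *Rgs5*, a pericyte regulator of G protein signalling, highest at 3.94 and *Cnn1*, a smooth muscle calponin, not called at 0.62. Fibroblast genes were mixed. *Col1a1*, *Col1a2* and *Igf2* were higher (2.10, 2.29 and 1.06), *Slc6a13* lower (-1.04), and *Dcn* and *Lum* not called. *Igf2* was not called without mouse 946 or 949, at 0.91 in both, and *Slc6a13* not without mouse 947 or 949, at -0.92 and -0.84.

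Ependymal and choroid plexus genes also rose: all 5 tested ependymal genes (median log2 fold change 2.85) and all 8 choroid plexus genes (2.86). The choroid plexus, which secretes cerebrospinal fluid, varied with the mouse. *Ttr*, its transthyretin, read 1182, 1056, 1017 and 779 CPM in tissue and 4574, 1681, 3431 and 3890 CPM in suspension. *Kl*, the klotho gene, read 27.3, 24.8, 25.4 and 24.7 CPM in tissue and 414, 93.8, 310 and 356 CPM in suspension. Mouse 947 was low in suspension for both, and the median log2 ratio of the list was 1.23 in that mouse and 3.10 to 3.30 in the others.

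**Figure D4:**
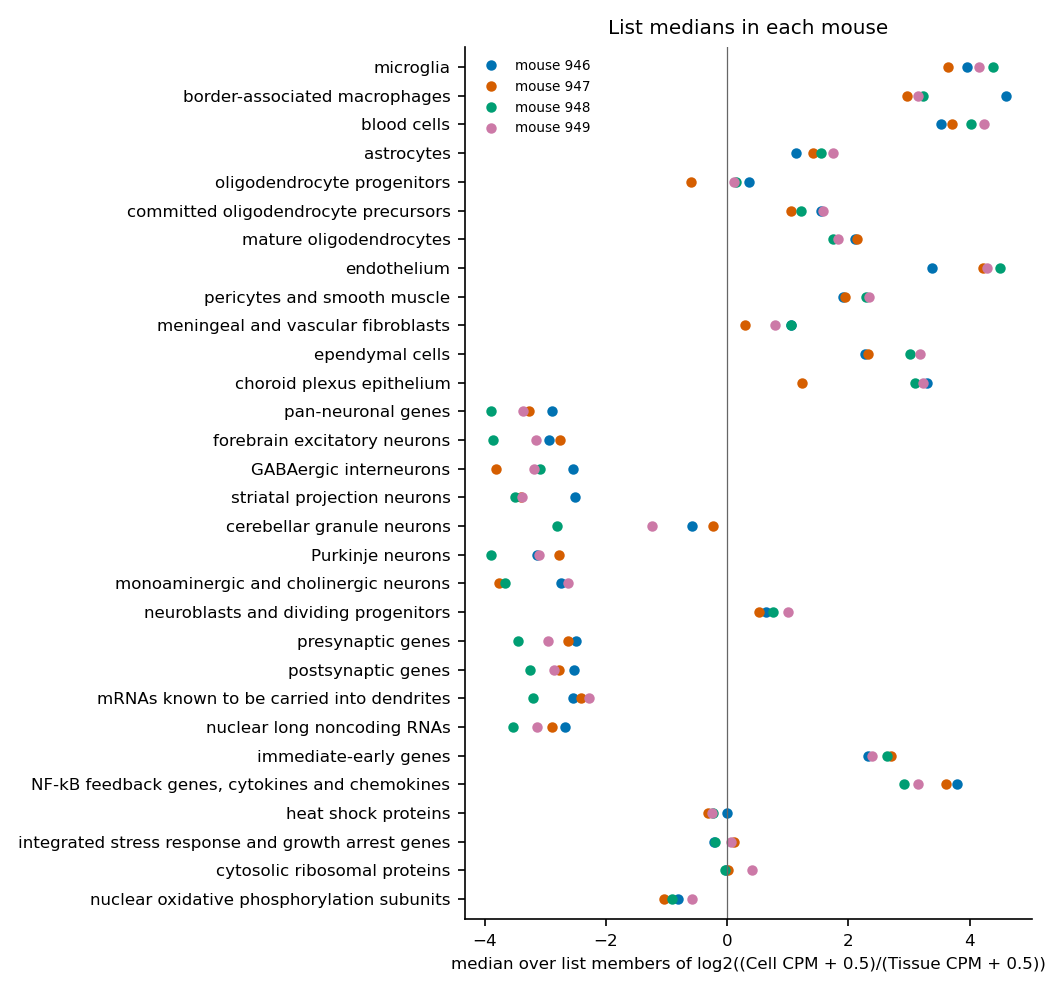
Median over the tested members of each list of the log2 ratio of Cell-Input to Tissue-Input CPM (each with 0.5 added) in each of the 4 mice. The points of a list lie close together for immediate-early genes (2.33 to 2.70) and apart for cerebellar granule neurons (-2.80 to -0.23) and choroid plexus (1.23 to 3.30).

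The study's larger marker lists, taken from published cell type data, gave these counts, beside 26.1% higher and 20.6% lower over all genes tested. Some members had few or no tissue counts and passed the filter through the suspension libraries. Examples are *Tnf* of the microglial list and *Tbx4* of the endothelial list. The counts and medians are therefore a description only. Of 282 microglial genes 271 were higher and none lower, with a median log2 fold change of 3.75. Of 235 endothelial genes 218 were higher and none lower (3.14), of 138 astrocytic genes 109 were higher and 1 lower (1.42), and of 194 oligodendrocytic genes 122 were higher and 7 lower (1.36). Of 97 neuronal genes 88 were lower and 1 higher (-3.12). The exception was *Erbb4*, a neuregulin receptor, at 2.76, named after its value was seen, and 2 neuronal genes were higher without mouse 947 or mouse 949. As summed shares of the library, neuronal genes fell from 2.91% to 0.416%, and astrocytic and oligodendrocytic genes rose from 2.42% and 2.74% to 5.86% and 5.42%.

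Immediate-early genes were higher in the suspension: 18 of 25 rose, 4 fell and 3 were not called, with a median log2 fold change of 2.61 against 0.02 for all genes. Their sum was 1034 ± 132 CPM in Tissue-Input and 7141 ± 986 CPM in Cell-Input (n = 4). *Fos*, a subunit of AP-1, read 46.7, 54.6, 26.1 and 29.0 CPM in tissue and 801, 1033, 746 and 720 CPM in suspension, 21.8-fold higher (log2 fold change 4.45 ± 0.14, adjusted p = 5.59e-08). The AP-1 subunits *Jun*, *Junb* and *Fosb* rose by 3.48 ± 0.09, 3.30 ± 0.10 and 2.61 ± 0.12, *Egr1* by 1.75 ± 0.10 and *Atf3*, a stress-induced repressor, by 5.63 ± 0.19. *Zfp36*, tristetraprolin, which destabilizes cytokine mRNAs, read 4.42, 18.5, 3.76 and 5.21 CPM in tissue and 772, 965, 774 and 703 CPM in suspension. Mouse 947 stood above the others in tissue and in suspension, and the groups were far apart (119-fold, log2 fold change 6.89 ± 0.33). The feedback regulators *Btg2*, *Ier2*, *Dusp1* and *Dusp6* rose by 4.95, 3.66, 3.45 and 2.83, and the transcription factors *Klf2*, *Klf4* and *Klf6* by 4.91, 4.63 and 2.26.

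Some members fell. *Arc*, a regulator of synaptic strength, read 182, 122, 109 and 124 CPM in tissue and 36.4, 35.1, 23.6 and 25.1 CPM in suspension (log2 fold change -2.16 ± 0.10). *Npas4*, a neuron-specific transcription factor, fell by 3.50 ± 0.23, *Nr4a2* by 2.09 ± 0.13 and *Dusp5* by 1.62 ± 0.36. *Egr3* stood at -0.75 ± 0.20, *Nr4a1* at 0.43 ± 0.14 and *Nr4a3* at 0.76 ± 0.24.

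Of 22 NF-kB feedback genes, cytokines and chemokines, 20 were higher and none lower, with a median log2 fold change of 4.41. Members with few tissue counts, such as *Tnf* and *Ccl3*, passed the filter on low counts through the suspension libraries. That count and median, and the fold changes of such members, are therefore a description only. *Tnf*, the central macrophage cytokine, read 0, 0.641, 0 and 0.0586 CPM in tissue, which is at most 10 counts in a library, and 41.2, 17.9, 14.7 and 15.5 CPM in suspension, which is at least 234 counts. *Ccl3*, a chemokine of activated microglia, read 0.528, 1.99, 0.313 and 0.234 CPM in tissue and 63.9, 78.8, 59.5 and 61.4 CPM in suspension (90.1-fold, log2 fold change 6.49 ± 0.32). *Cxcl2* had no count in any tissue library and 24 to 74 counts in the suspension libraries. With the 3 counts that a count of 0 allows over the tissue group, it was at least 69.9-fold higher. *Il1a*, *Il1b*, *Ccl2* and *Ccl4* rose by 6.41 ± 0.22, 5.81 ± 0.47, 6.08 ± 0.38 and 6.69 ± 0.39. Negative regulators rose too: *Tnfaip3* by 4.08 ± 0.13, *Nfkbiz* by 3.73 ± 0.12 and *Nfkbia*, which encodes the inhibitor of NF-kB, by 2.26 ± 0.08. *Ptgs2* (0.55 ± 0.26) and *Relb* (0.61 ± 0.13) were not called. With a minimum of 10 counts in every library, which leaves fewer members to test, 6 were higher, with a median of 2.36.

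These genes and the marker genes of microglia rose in the same libraries. In tissue, the cytokine list summed to 109 to 159 CPM and the microglia list to 642 to 972 CPM, both highest in mouse 947. In suspension they summed to 773 to 1131 CPM and 10310 to 13062 CPM. The part of cell composition in the rise of these genes was not tested.

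**Figure D5:**
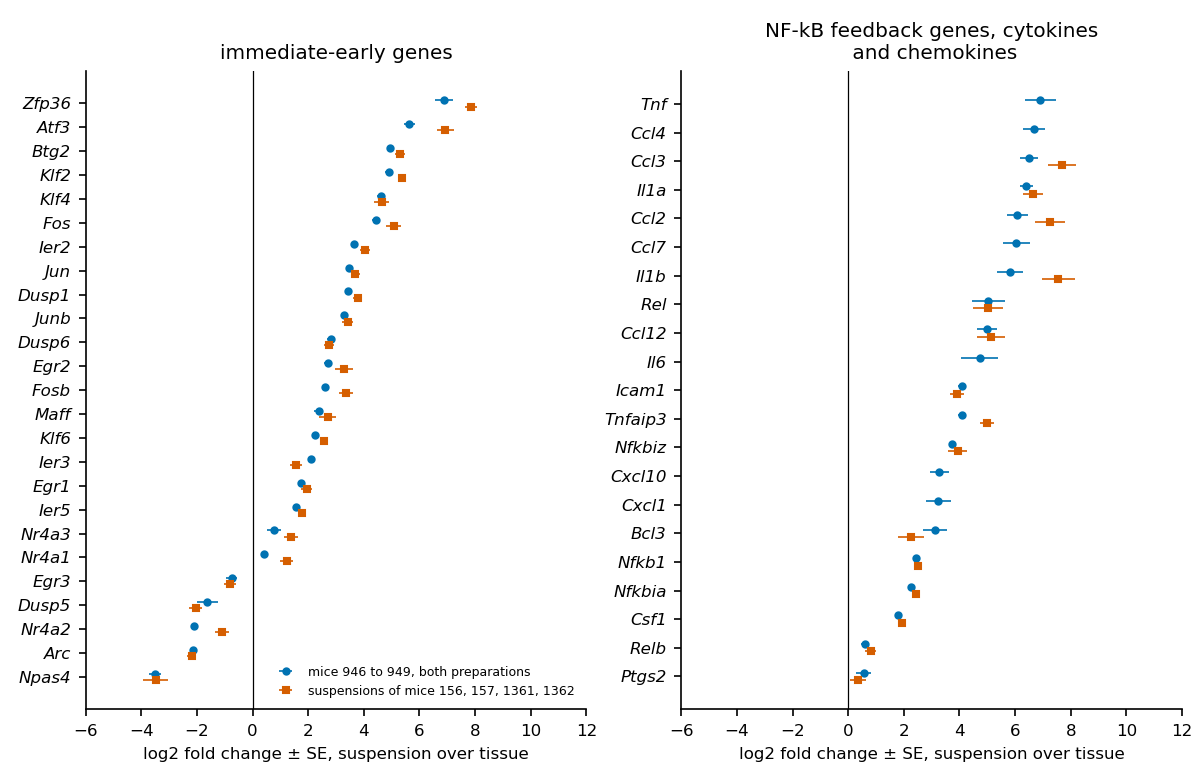
Log2 fold change ± SE of suspension over tissue Input for the immediate-early genes and for the NF-kB genes, cytokines and chemokines (*Cxcl2* left out), in mice 946 to 949 (circles) and with suspensions of other mice (squares, where the tissue held more than 3 counts). *Npas4*, *Arc*, *Nr4a2*, *Dusp5* and *Egr3* lie left of 0 and the other genes drawn right of it; several cytokine genes had few counts in tissue.

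Promoters of the immediate-early and cytokine lists, not all of whose members rose, were searched for motifs of factors that induce such genes. The motifs were the cyclic AMP response element (CRE, TGACGTCA) and the NF-kB motif. Each was searched on both strands over the 250 bases before and 50 bases after the start site in RefSeq promoters of GRCm38.p6. The NF-kB motif was in 9 of 17 promoters of the cytokine list (16 genes found), in 4 of 27 promoters of the immediate-early list (21 genes found; *Fos*, *Fosb*, *Egr2* and *Nr4a1*) and in 5.80% of all 32851 promoters. The CRE was in 3 of the 27 immediate-early promoters (*Btg2*, *Maff* and *Dusp1*), in 0 of the 17 cytokine list promoters and in 1.79% of all promoters. Each line gives 30 bases on the strand of the gene with the motif in capitals. The lines are from some of the genes with a match whose values are given here. The NF-kB matches of the immediate-early list are not shown. The cytokine list was chosen to hold NF-kB feedback genes, so its share of promoters with the NF-kB motif is no independent result. Bases after the start site were found on the same strand of transcripts for 6 of 8 genes checked. A match is only a description of these letters.

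Nfkbia, chr12:55492657-55492686, minus strand: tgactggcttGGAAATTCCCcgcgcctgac
Cxcl2, chr5:90903792-90903821, plus strand: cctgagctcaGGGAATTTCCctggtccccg
Tnfaip3, chr10:19015403-19015432, minus strand: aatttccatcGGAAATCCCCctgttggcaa
Btg2, chr1:134079303-134079332, minus strand: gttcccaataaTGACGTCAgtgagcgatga
Dusp1, chr17:26508597-26508626, minus strand: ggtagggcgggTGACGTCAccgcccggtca

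Fewer stress genes outside those lists passed the thresholds: 18.2% of the heat shock list and 33.3% of the stress response list, against 46.7% of all genes tested. The groups did not overlap in CPM for 6 of the 11 heat shock genes and 10 of the 12 stress response genes, against 76.7% of all genes. The heat shock count is below that share and the stress response count is near it. Of 11 heat shock genes 2 were higher, *Hspb1* (2.87 ± 0.16) and *Hspa1b* (1.17 ± 0.16), none was lower and the median log2 fold change was -0.25. *Hspa1b* read 59.4, 35.3, 29.5 and 27.5 CPM in tissue and 188, 86.9, 64.6 and 40.2 CPM in suspension, highest in mouse 946 in both, and was not called without that mouse, at 0.998. *Hsp90aa1*, at -0.90, was called lower without mouse 946, at -1.001. Of 12 genes of the integrated stress response and growth arrest, *Trib3* and *Ddit4* were higher (1.94 and 1.13) and *Asns* and *Chac1* lower (-3.61 and -2.93), with a median of -0.10. *Ddit3* and *Atf4*, the transcription factors of that response, both stood at -0.37.

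Ribosomal protein and oxidative phosphorylation genes were examined as housekeeping machinery. Of 80 cytosolic ribosomal protein genes 1 was higher (*Rps27l*, 1.02) and 1 lower (*Rpl3l*, -2.89, the muscle paralog, under 1 CPM), and the median log2 fold change was 0.08. *Rps27l* was not called without mouse 946, 948 or 949, at 0.953 to 0.999. Of 81 nuclear genes of oxidative phosphorylation 18 were lower and 3 higher, with a median of -0.82. In all, 25.9% of them were called, against 46.7% of all genes tested, of which 20.6% were lower. The count of lower members is thus near the share over all genes. The groups did not overlap in CPM for 75 of the 81, against 76.7% of all genes. *Atp5b*, a subunit of ATP synthase, went from 1608, 1648, 1604 and 1555 CPM to 940, 830, 866 and 999 CPM (-0.82 ± 0.09), and *Cox5a*, a subunit of complex IV, fell by 1.50 ± 0.08. The count of lower genes was 11 without mouse 947 and 33 without mouse 949, 11 with libraries scaled by their totals alone and 5 with all 24 Input libraries in 1 fit. The 3 higher genes were *Cox4i2*, *Cox6b2* and *Cox8b*, tissue-restricted forms of complex IV subunits with means of at most 11.6 CPM.

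The same preparation was also made from other mice. In the cell preparation experiment, enzymatic suspensions without inhibitors came from mice 156, 157, 1361 and 1362. They stood beside a second set of tissue libraries labelled with mice 946 to 949. The labels do not say whether that set was newly made or sequenced again. The libraries of both groups held 8617626 to 10411984 counts. The paper reports that coverage in the tissue libraries of this experiment leaned more toward the poly(A) end of genes than in the suspension libraries. It also reports less RNA from a suspension than from tissue. What these differences do to the values was not tested. The comparisons share the tissue mice, so they are not independent, and the mice of the groups differ, so no block was used. Of 15132 genes tested 6836 were called (45.2%), 3881 higher (25.6%) and 2955 lower (19.5%), with a median log2 fold change of 0.03 over all genes. The list medians were 4.38 for microglia, 4.26 for endothelium, 1.86 for mature oligodendrocytes, 1.52 for astrocytes, -3.77 for pan-neuronal genes and 2.76 for immediate-early genes. Cerebellar granule neurons stood at -2.78 there, with *Gabra6* at 3.73 to 9.93 CPM in suspension against 37.7 to 60.5 CPM in tissue. *Zfp36* stood at 7.86 ± 0.22 and *Fos* at 5.07 ± 0.27 on the log2 scale, and *Arc* at -2.18. *Malat1* stood at -0.10, not called, and *Rorb* at -1.88. The tables were normalized separately and the difference between the experiments was not tested.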

How the data were processed

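RNA-seq was measured in Tissue-Input and Cell-Input libraries of 4 mice. Stranded poly(A) libraries were aligned to mm10 and counted in Strand NGS with duplicate reads removed, and the authors deposited expected counts per gene, of which 21.8% in these 8 libraries were whole numbers, and log2 values normalized by DESeq2 and set relative to the Tissue-Input median of each gene. Expected counts were rounded and tested with the edgeR (4.0.16, R 4.3.3) quasi-likelihood test after TMM scaling, with the mouse as a block, in the 8 libraries, and p-values were adjusted by Benjamini-Hochberg. Genes with more than 5 counts in every library of at least 1 group were tested, and an adjusted p under 0.1 with a fold change above 2 was called. The libraries of 1 mouse come from opposite hemispheres of the same brain, which is the source of the pairing. Deviations of same-mouse libraries from their group means correlated at 0.03, 0.01, -0.01 and -0.04. The second experiment was fitted alike without a block.

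The members, gene lists and tests were chosen with earlier results of these data known. Genes named are the first 4 tested members of each list, its extremes, the 12 largest rises and falls with a mean of at least 50 CPM in the higher group and the same direction in all 4 mice, and the 5 genes with the most counts per group. Other members, including exceptions to the direction of a list, were named after their values were seen. Per-mouse list medians used log2 ratios of CPM with 0.5 added. In both tables, dates in place of 23 gene symbols were set back from the gene identifiers. Promoter sequences are from RefSeq (GRCm38.p6). The fit was tested on simulated counts with known changes in a small share of the genes, evenly up and down. That does not test the scaling where as many genes change as in these libraries. Alternatives were the fit without the block, DESeq2 (1.42.0) size factors and its Wald test, library totals, no filter, at least 10 counts, all 24 Input libraries of the table together, limma (3.58.1) on the deposited log2 values, and leaving out each mouse. Depth limits genes with few counts, and counting error alone is covered by the limit on *Cxcl2*. An earlier, partial table of the cell preparation experiment was not used here. Some genes that these rules name are not reported here.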

Additional observations from a re-analysis of the deposited data

Results flagged for a closer look

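Among 376 groups of 4 libraries examined (158 genes and 30 lists), 23 had 1 library far from the other 3 by Dixon's criterion, which chance gives for about 1 group in 20. The Tissue-Input library of mouse 947 was high for the microglia list (972 CPM summed), the NF-kB and cytokine list (159 CPM summed), *P2ry12* (19.3 CPM), *Zfp36* (18.5 CPM), *Ccl3* (1.99 CPM), *Tnf* (0.641 CPM), *Tubb3* (771 CPM), *Mag* (312 CPM) and *C1ql1* (22.8 CPM). That of mouse 949 stood apart for the astrocyte list (7747 CPM summed, low) and *Nlgn1* (50.8 CPM).

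In Cell-Input, the library of mouse 946 was high for *Ccl2* (30.8 CPM), *Tnf* (41.2 CPM), *Cd163* (63.9 CPM), *Hsp90aa1* (1230.3 CPM) and *Vgf* (25.9 CPM) and stood apart for *Zic2* (99.6 CPM). The library of mouse 949 was high for *Alas2* (441 CPM) and *Cspg4* (35.7 CPM), and that of mouse 948 for the pericyte and smooth muscle list (697 CPM summed). *Hspb1* stood apart in mouse 948 (127 CPM), and *Dcn* (17.7 CPM) and *Maff* (34.03 CPM) in mouse 947.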

How the results depend on the processing

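Counts of genes called over all genes stayed within 1.5 times of those reported under each alternative run. No named gene changed direction where it was called in the reported fit or in the alternative. Sign changes of genes called in neither fit were not counted. Without the mouse as a replicate block, 4030 genes were higher and 3157 lower, and of the genes named in the report *Gabra6* alone changed its call (-0.93). With a minimum of 10 counts in every library, which tests fewer genes, 3128 genes were higher and 2383 lower. Under that minimum the blood list had 3 higher members, the NF-kB and cytokine list 6 (median 2.36), neuroblasts 2 (median 0.50), the monoaminergic and cholinergic list 2 lower (median -2.34), the ribosomal list 0 lower and the stress response list 1 lower, with its median at 0.19 in place of -0.10.

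With all 24 Input libraries in 1 fit the median of all genes shifted by 0.15, to 0.17, and 61.9% of called genes were higher against 55.9%. In that fit 1 progenitor, 0 fibroblast and 5 oxidative phosphorylation genes were lower, 1 granule neuron gene and 2 genes of the study's neuronal list were higher, *Malat1* was not called (-1.07) and the median of the study's microglial list was 3.90. Scaled by library totals alone, 0 fibroblast and 11 oxidative phosphorylation genes were lower and 2 of the study's neuronal genes higher. The cause of these changes was not tested.

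Leaving out each mouse in turn gave 1 to 2 lower progenitor genes, 0 to 1 lower fibroblast genes, 3 to 7 lower and 0 to 1 higher granule neuron genes, 1 to 3 higher and 0 to 1 lower heat shock genes, 0 to 1 higher ribosomal genes, 11 to 33 lower oxidative phosphorylation genes, and 1 to 2 higher genes of the study's neuronal list. The monoaminergic and cholinergic median ranged from -4.57 to -3.60. Over the named genes, 5680 gene and setting pairs kept their call, 68 lost it and 35 gained it. Depth limits the cytokines with few counts in tissue.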
